A study of Mus musculus with 24 samples.

Results

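The genes described are 10 secreted antimicrobial and acute phase genes of the mouse mammary gland: Defb1, Ltf, Lcn2, Wfdc12, Wfdc2, Slpi, S100a8, S100a9, Lbp and Pigr. They were taken by gene symbol, and each was read by 1 of its probe sets, the one with the highest mean log2 value over all arrays. They are 10 of 18193 genes that the platform annotation names through a probe set of a single symbol. All 10 were found, and 9 of them were bright enough to be among the 12336 genes tested. Pigr was too dim on every array.

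The arrays measured whole mammary glands of nulliparous Balb/c mice. All mice, controls included, were ovariectomized at 6 weeks of age and rested for 2 weeks, which removes the ovarian source of progesterone and oestrogen. Progesterone mice were given 1 mg of the hormone in 100 µl of sesame oil under the skin once a day and glands were taken 4, 16, 28 or 76 h after injections began. Control mice were given 100 µl of the oil and were sampled at the same times. The 28 h and 76 h mice of a daily schedule would have had more than 1 injection, so that time since the first injection and number of injections cannot be told apart. Each of the 8 groups had 3 arrays, 24 in all, and each array carried RNA pooled from 5 mice. A p-value therefore measures the spread between such pools.

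These proteins stand at the surfaces where milk, mucus or inflamed tissue meets microbes. Defensins are small cationic peptides that break microbial membranes. Lactoferrin and lipocalin 2 keep iron from bacteria, the first by binding the metal and the second by binding the siderophores that carry it. Proteins with a whey acidic protein core, a small domain held by disulfide bonds, include protease inhibitors with antibacterial activity. The S100A8 and S100A9 proteins form calprotectin, which binds zinc and manganese and makes up much of the cytosol of neutrophils. LBP carries bacterial lipopolysaccharide to CD14 and the TLR4 complex, and the polymeric immunoglobulin receptor carries antibody of the A class across the epithelium into milk.

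A change is given as the difference of log2 intensities, progesterone minus oil of the same time, with its standard error from a linear model over all 24 arrays (limma). A gene was called at a Benjamini-Hochberg adjusted p under 0.05 over all 12336 genes. By this rule the share of all genes called was 0.186% at 4 h and 0.308% at 16 h, then 2.54% at 28 h and 17.7% at 76 h. Of the 9 genes tested here, 1 passed at 4 h and 0 at 16 h, then 3 at 28 h and 4 at 76 h. Defb1 and Wfdc12 were bright enough to be tested through progesterone arrays only, with no oil array above its array median. Wfdc12 gave the call at 4 h, and both were called at 76 h. Counts of the 9 genes here and below thus include 2 let in by the groups in which they were high. At 16 h, where limma called 0 of the 9, Ltf, Lcn2, Wfdc2 and Lbp had an unadjusted p under 0.05. So did 2181 of all 12336 genes at that time. In order of time, the median change of the 9 genes was -0.10, -0.39, 0.58 and -0.42, against -0.01, -0.07, 0.00 and 0.02 over all genes.

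The array medians lay between 62.8 and 70.2, and pairs of arrays of 1 group had an r between 0.965 and 0.993 over the tested genes. The progesterone receptor gene Pgr checks the labels of the treatment, since progesterone lowers its own receptor. Pgr had 85.5 ± 15.6 at 4 h in progesterone glands and 464 ± 46.6 in oil glands (SD, n = 3 each), and it was called lower at 4, 16 and 28 h. At 76 h Pgr was not called, with 279 ± 29.7 in progesterone glands and 279 ± 43.2 in oil glands.

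Markers of several cell types changed with treatment at 76 h. Of 30 tested luminal epithelial markers 25 rose and 1 fell, with a median change of 1.26, and 13 of 19 basal epithelial markers rose, with a median of 1.03. Of 18 white adipocyte markers 8 fell, with a median of -0.29, and 11 of 21 lymphocyte markers fell, with a median of -0.47. Of 14 fibroblast and matrix markers 9 rose, with a median of 0.40. In whole tissue, more or fewer cells of a type and more or less RNA per cell cannot be told apart, and this holds for every change given here. At 4, 16 and 28 h the medians of the luminal markers were -0.05, 0.01 and 0.09.

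**Figure D1:**
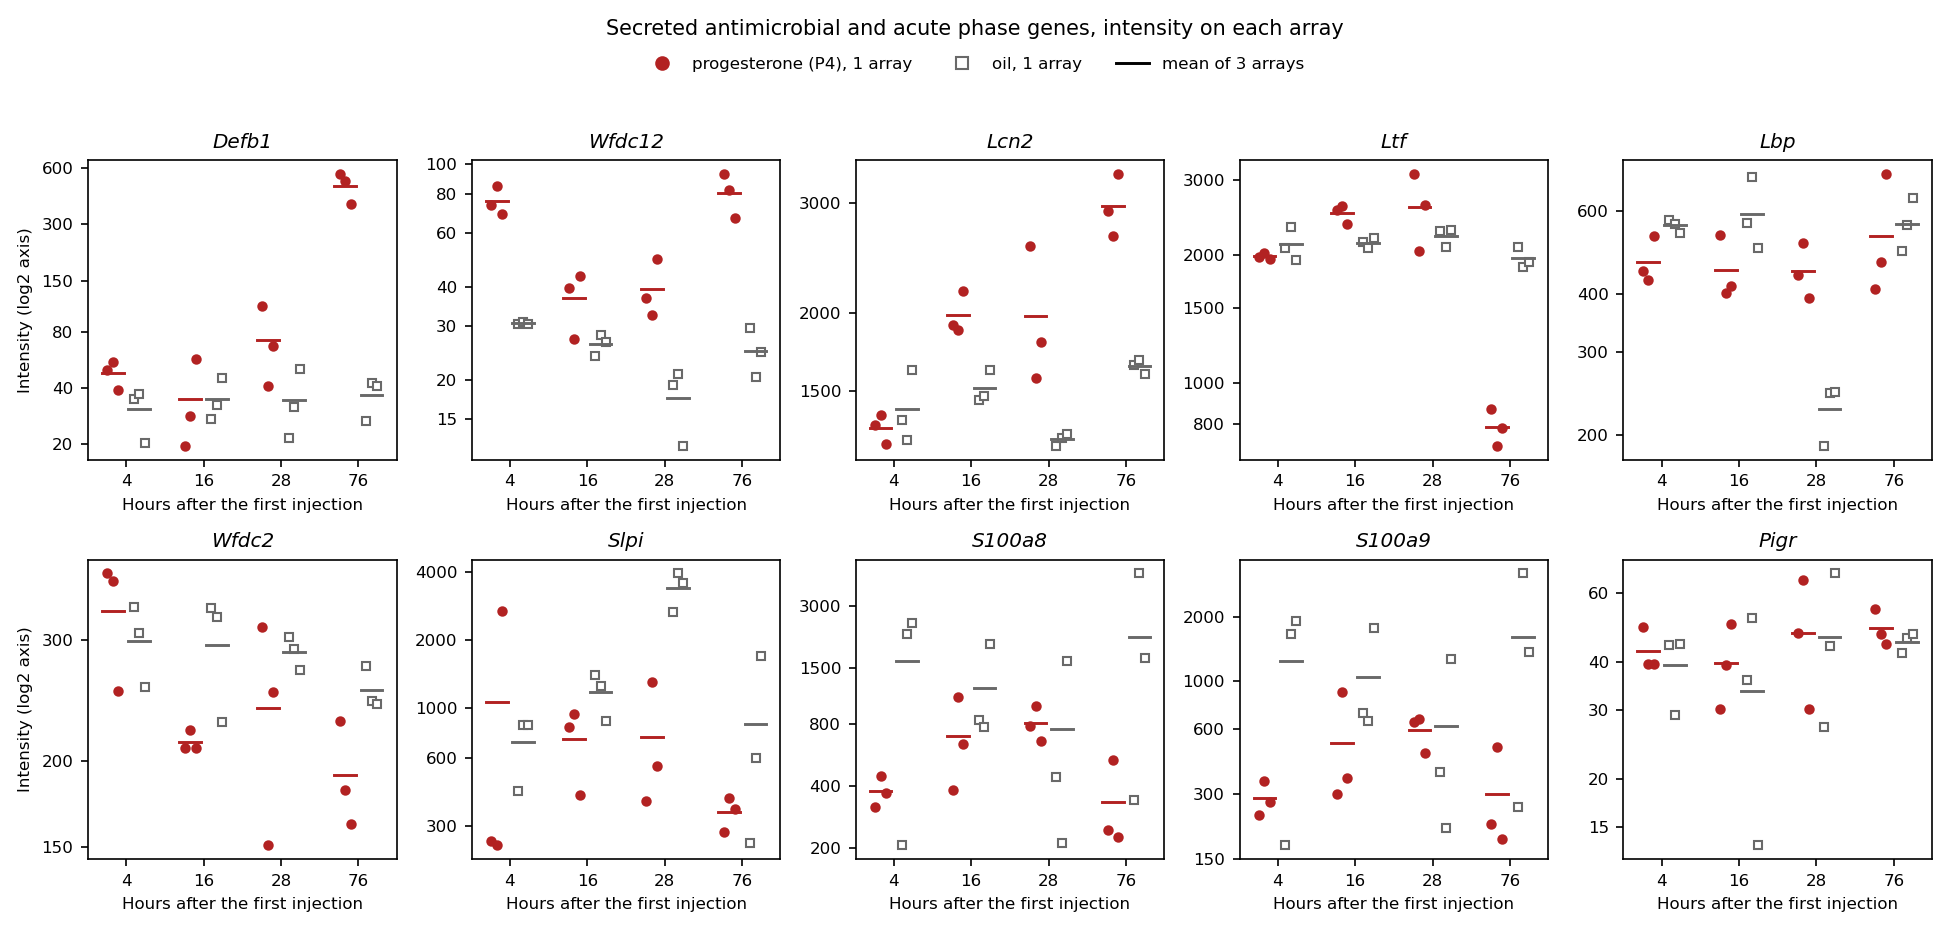
Intensity of the 10 genes (log2 axis) on each array at 4, 16, 28 and 76 h, progesterone (P4, filled circles) left of oil (open squares), with the mean of 3 arrays as a line. At 76 h Defb1, Wfdc12 and Lcn2 are above and Ltf below all oil arrays of that time, while S100a8, S100a9 and Slpi spread widely within groups.

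Defb1 encodes beta-defensin 1, which epithelia make constitutively and which lies at chr8:21776555-21795185 (GRCm38.p6). At 76 h Defb1 had intensities of 558, 509 and 384 in progesterone glands, against 26.6, 42.2 and 40.9 in oil glands. The lowest progesterone array was 9.09-fold above the highest oil array. The change was 3.74 ± 0.38 on the log2 scale (limma adjusted p = 2.15e-07), the fourth in size of all genes at that time. Oil arrays lay below the array median at all times, and no background level was at hand, so that the fitted 13.3-fold is imprecise. The 76 h progesterone values averaged 7.31-fold the median of their own arrays.

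At the earlier times Defb1 stayed dim. It had 50.00, 55.3 and 38.9 at 4 h in progesterone glands, against 34.9, 37.1 and 20.3 in oil glands. These groups did not overlap, but the change of 0.68 ± 0.38 was not called (adjusted p = 0.483). At 28 h the progesterone values were 110, 40.8 and 66.9, against 21.7, 31.6 and 50.4 in oil glands, and the groups overlapped (1.04 ± 0.38, adjusted p = 0.192). A second probe set of Defb1 gave 2.09 at 28 h (adjusted p = 0.0068), but its median intensity over all arrays was 4.10, under the floor of 7.38 applied before taking log2, and it lay above the array median on 3 of 24 arrays. At 16 h the means were 35.0 ± 19.8 in progesterone glands and 34.9 ± 9.04 in oil glands.

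Wfdc12 encodes a secreted protein with a whey acidic protein core, at chr2:164189231-164190558. It was the only one of the 9 tested genes called at 3 of the 4 times. At 4 h it had 73.6, 85.0 and 68.9 in progesterone glands, against 30.5, 30.8 and 30.2 in oil glands (1.31 ± 0.25, adjusted p = 0.0198). The lowest progesterone array was 2.23-fold above the highest oil array. The call is fragile: leaving out 1 of the 6 arrays of 4 h in turn kept it in 1 of 6 fits, and the adjusted p reached 0.179 without progesterone replicate 2.

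At 16 h Wfdc12 was 36.8 ± 8.63 in progesterone glands and 26.2 ± 2.03 in oil glands, which overlapped and were not called (0.46 ± 0.25, adjusted p = 0.328). At 28 h it had 37.0, 32.5 and 49.1 in progesterone glands, against 19.2, 20.9 and 12.2 in oil glands (1.20 ± 0.25, adjusted p = 0.00714). These oil arrays averaged 17.4, the lowest of the 4 oil groups, and with the 9 remaining oil arrays as controls the change was 0.53 and was not called (adjusted p = 0.268). Without progesterone replicate 3 of 28 h the adjusted p was 0.0520. At 76 h it had 92.9, 82.2 and 66.7 in progesterone glands, against 29.4, 20.4 and 24.7 in oil glands (1.70 ± 0.25, adjusted p = 2.96e-05). Under progesterone the levels of 4 and 76 h, at means of 75.8 and 80.6, lay close together, and those of 16 and 28 h lay between them and oil. Wfdc12 exceeded the array median on 6 of 24 arrays, which are the progesterone arrays of 4 and 76 h. Its 76 h progesterone values averaged 1.22-fold that median, and the fitted 3.25-fold is against dim oil values.

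Lcn2 and Ltf, the siderophore binder and the iron binder, were bright on every array and moved in opposite directions at 76 h. Lcn2 lies at chr2:32384637-32387739 and Ltf at chr9:111019292-111042766. At 76 h Lcn2 had 2912, 2659 and 3340 in progesterone glands, against 1647, 1678 and 1595 in oil glands (0.85 ± 0.13, 1.80-fold, adjusted p = 2.87e-05). In the same glands Ltf had 869, 709 and 783, against 2089, 1879 and 1931 in oil glands (-1.32 ± 0.11, adjusted p = 7.10e-09). Neither gene's groups overlapped, and Ltf in oil was 2.50-fold its progesterone level.

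At the earlier times the fitted changes of the 2 genes had the same sign as each other, and only that of Lcn2 at 28 h was called. Lcn2 had 2562, 1573 and 1797 at 28 h in progesterone glands, against 1222, 1258 and 1280 in oil glands (0.63 ± 0.13, adjusted p = 0.00489). That call rests partly on 1 array, since without progesterone replicate 1 of 28 h the adjusted p was 0.0507. At 16 h it had 1914, 1876 and 2170, against 1452, 1473 and 1616 in oil glands, groups that did not overlap (0.39 ± 0.13, adjusted p = 0.164). At 4 h it averaged 1307 ± 71.5 in progesterone glands and 1404 ± 190 in oil glands. From 16 h on, the progesterone arrays of Lcn2 thus lay above the oil arrays of the same time, although the 16 h change was not called.

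Ltf had 2558, 2611 and 2370 at 16 h in progesterone glands, against 2144, 2080 and 2190 in oil glands, all higher but not called (0.23 ± 0.11, adjusted p = 0.262). At 28 h its values were 3104, 2040 and 2622, against 2284, 2092 and 2288 in oil glands, with overlap (0.20 ± 0.11, adjusted p = 0.474). At 4 h it averaged 1987 ± 31.6 in progesterone glands and 2121 ± 196 in oil glands. The oil arrays of Ltf spanned no more than 1.24-fold over all 4 times. The 3 progesterone arrays of 76 h were below every other array of the series.

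The 100 bases upstream of the starts of Lcn2 and Ltf are shown because these are the bright genes that separated at 76 h. They are RefSeq sequences of GRCm38.p6, from chr2:32387740-32387839 on the minus strand for Lcn2 and chr9:111019192-111019291 on the plus strand for Ltf. Capitals mark ATAAA, letters found in many TATA boxes.
Lcn2: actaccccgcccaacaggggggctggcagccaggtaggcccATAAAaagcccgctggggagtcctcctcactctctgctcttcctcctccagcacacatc
Ltf: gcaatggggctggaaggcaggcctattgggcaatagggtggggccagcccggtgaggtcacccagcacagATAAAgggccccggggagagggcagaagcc
The element begins 59 bases before the start in Lcn2 and 30 in Ltf. ATAAA on the gene's strand occurs in this window in 11% of the 32851 mouse promoters of the RefSeq table. Searched on both strands of 300 bases (250 before and 50 after the start), the steroid receptor hexamer TGTTCT (19.0% of promoters) and the STAT element TTCNNNGAA (8.30%) were found, of the 8 promoters of the group, in that of Pigr only. A missing match says only that these letters are not in the window.

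Beside the epithelial markers of the same arrays, the 4 called genes of 76 h lay on both sides. The mean log2 level of the 30 luminal markers was higher by 1.19 in progesterone than in oil glands. Defb1 (3.74) and Wfdc12 (1.70) changed by more than that mean, Lcn2 (0.85) by less, and Ltf (-1.32) in the opposite direction. The summed intensity of the luminal markers ranged from 30558 to 34188 in progesterone glands and from 13362 to 15668 in oil glands at 76 h. That of the adipocyte markers ranged from 96078 to 111201 in progesterone glands and from 120043 to 122160 in oil glands. The part of these cell types in the 76 h results was not tested.

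**Figure D2:**
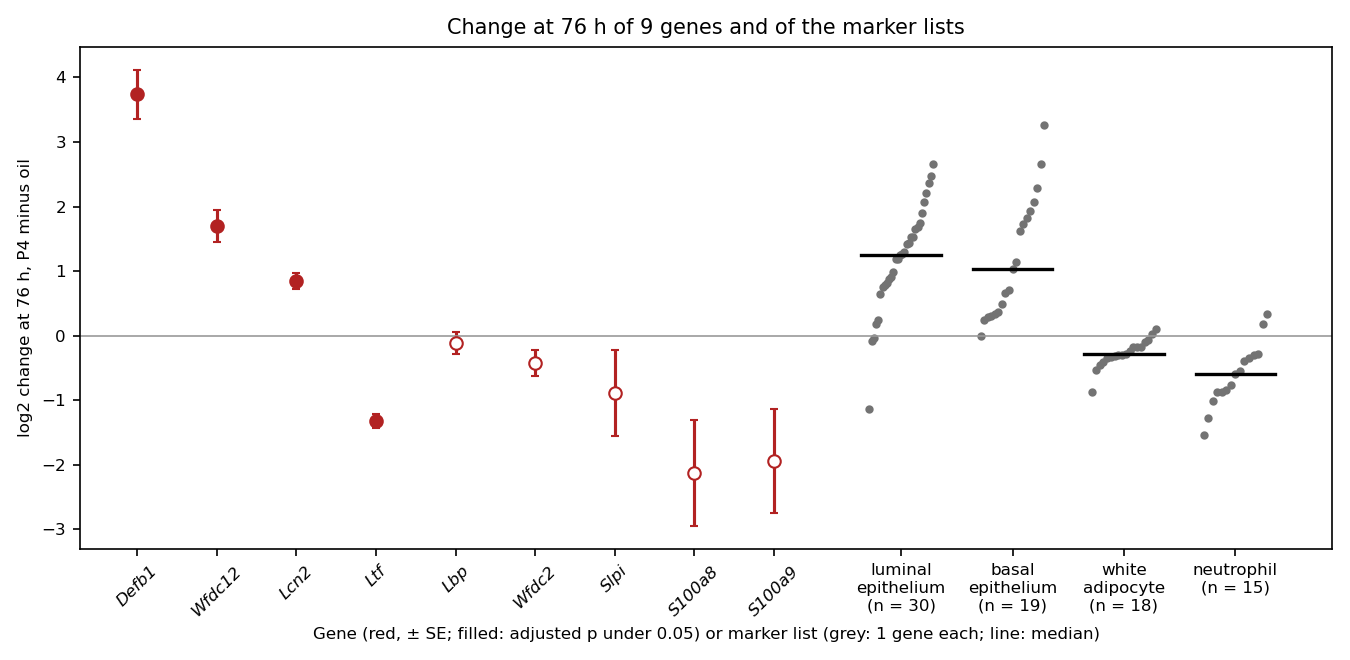
Change of log2 intensity at 76 h, progesterone minus oil, for 9 of the genes (red, ± SE, filled where called) and for each gene of 4 marker lists (grey) with the list's median (line). Defb1, at 3.74, lies above every luminal and basal marker shown, Lcn2, at 0.85, below the luminal median of 1.26, and Ltf, at -1.32, below every adipocyte marker shown.

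Lbp, at chr2:158306493-158332852, was called at 28 h only. It had 438, 513 and 391 in progesterone glands, against 190, 247 and 247 in oil glands (0.98 ± 0.17, adjusted p = 0.00183). The oil arrays of 28 h were the lowest of the series for this gene, below every other array. At the other times oil arrays ranged from 492 to 708, so that 2 of the 3 progesterone arrays of 28 h lay below that range. With the 9 oil arrays of the remaining times as controls, Lbp at 28 h was not higher but at -0.35 (adjusted p = 0.288). Its oil level differed between times (F-test, adjusted p = 1.83e-05), as did that of 12.2% of all genes. A second, dimmer probe set gave 0.78 at 28 h, which was not called (adjusted p = 0.113).

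Stromal genes moved with Lbp at 28 h. Of 14 tested fibroblast and matrix markers 9 were called higher against the 28 h oil arrays. Of 19 macrophage markers 3 were called higher, Folr2, Mrc1 and Fcgr3. With the remaining oil arrays as controls limma called 0 of either list (2 fibroblast and 13 macrophage markers had an unadjusted p under 0.05). The median changes were then below 0, at -0.10 for the fibroblast and -0.27 for the macrophage markers. Their part in the Lbp result was not tested. At 4 h Lbp averaged 467 ± 54.4 in progesterone glands and 559 ± 17.9 in oil glands, without overlap and not called. At 16 h it averaged 449 ± 72.4 in progesterone glands and 591 ± 106 in oil glands, and at 76 h 531 ± 164 in progesterone glands and 563 ± 72.8 in oil glands, which overlapped.

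Wfdc2 encodes another protein with a whey acidic protein core, at chr2:164562715-164568510. It was above the array median on all arrays and was called at no time. It averaged 331 ± 67.9 at 4 h in progesterone glands and 300 ± 39.9 in oil glands. At 16 h it had 210, 222 and 209 in progesterone glands, against 334, 324 and 228 in oil glands, just without overlap (-0.45 ± 0.20, adjusted p = 0.259). At 28 h it averaged 239 ± 82.2 in progesterone glands and 288 ± 16.2 in oil glands. At 76 h it had 229, 181 and 162 in progesterone glands, against 275, 245 and 242 in oil glands (-0.42 ± 0.20, adjusted p = 0.163). All 3 progesterone arrays of 76 h were thus lower than oil, and with the remaining oil arrays as controls the difference was -0.63 and was called (adjusted p = 0.00495).

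Slpi, at chr2:164354070-164356507, encodes the secretory leukocyte protease inhibitor, which blocks neutrophil elastase and cathepsin G. At 28 h it had 385, 1299 and 551 in progesterone glands, against 2656, 3944 and 3563 in oil glands. The lowest oil array was 2.04-fold above the highest progesterone array, and the change of -2.36 ± 0.67 missed the threshold (adjusted p = 0.0638). In the 24 fits that each left out 1 array it was called in 5. Without progesterone replicate 3 of 4 h the adjusted p was 0.0053. That array read 2682, against 256 and 245 on the other progesterone arrays of 4 h and 429, 841 and 836 in oil glands.

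The wide spread of Slpi was shared with antibody genes. Its closest genes over the 24 arrays were Jchain (Pearson r = 0.938, Spearman rho 0.924), which joins polymeric antibodies, Mzb1 (0.935, rho 0.924), a chaperone of antibody-secreting cells, and the kappa light chain Igk (0.922, rho 0.892). Jchain read 5855 on progesterone replicate 3 of 4 h, against 2627 and 2686 on the other arrays of that group. At 28 h Jchain averaged 3795 ± 796 in progesterone glands and 6903 ± 601 in oil glands (-0.88 ± 0.22, adjusted p = 0.0247). With the remaining oil arrays as controls it was at -0.12, and Slpi at 28 h at -0.28 (adjusted p = 0.851). The oil level of Slpi differed between times (F-test, adjusted p = 0.0457).

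The summed intensity of the antibody and plasma cell list ranged at 28 h from 20655 to 25176 in progesterone glands and from 31288 to 33244 in oil glands. Of its 16 tested genes 5 fell at 28 h and 1, the epithelial and plasma cell proteoglycan Sdc1, rose. Csn2, the beta casein of milk, averaged 101 ± 45.8 in progesterone glands and 660 ± 496 in oil glands at 28 h (-2.47 ± 0.48, adjusted p = 0.00344). With the remaining oil arrays as controls, Csn2 in the same progesterone glands was higher by 3.51 (adjusted p = 2.54e-05), so that both 28 h groups lay above those controls on average. The part of antibody-secreting or milk-making cells in the Slpi values was not tested. At 16 h Slpi averaged 724 ± 276 in progesterone glands and 1174 ± 273 in oil glands, which overlapped. At 76 h it had 282, 399 and 356 in progesterone glands, against 252, 598 and 1687 in oil glands (-0.89 ± 0.67, adjusted p = 0.411). With the remaining oil arrays as controls the 76 h difference was -2.00 (adjusted p = 0.00664). Those controls include the 28 h oil arrays, which averaged 3387 ± 662, the highest of the oil groups for Slpi. The 76 h call of Slpi thus depends on which oil arrays serve as controls.

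S100a8 and S100a9, at chr3:90669071-90670034 and chr3:90692630-90695721, encode the calprotectin subunits. Neither was called at any time, and both varied widely between oil arrays of 1 group. At 76 h S100a8 had 244, 536 and 225 in progesterone glands, against 342, 4306 and 1678 in oil glands (-2.13 ± 0.82, adjusted p = 0.0764). S100a9 had 217, 498 and 185 in progesterone glands, against 262, 3175 and 1372 in oil glands (-1.94 ± 0.80, adjusted p = 0.102). In both genes 2 of the 3 oil arrays were far above the progesterone arrays and the third lay among them. Without oil replicate 1 of 76 h, the lowest, the adjusted p was 0.0116 for S100a8 and 0.0141 for S100a9.

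The same split appeared at 4 h. S100a8 had 315, 444 and 371 in progesterone glands, against 205, 2173 and 2457 in oil glands (-1.47 ± 0.82, adjusted p = 0.476). S100a9 had 240, 345 and 275 in progesterone glands, against 173, 1665 and 1903 in oil glands (-1.53 ± 0.80, adjusted p = 0.442). The oil group thus held both the lowest value and the highest ones. At 28 h the means lay close, with S100a8 at 809 ± 161 in progesterone glands and 756 ± 751 in oil glands. At 16 h it averaged 701 ± 355 in progesterone glands and 1188 ± 667 in oil glands. Over all oil arrays S100a8 spanned 21.0-fold and S100a9 18.4-fold.

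The 2 genes varied together from array to array, with r = 0.991 over 24 arrays (rho 0.99) and 0.993 for deviations from the group means. The next closest gene to each was Ngp, with r = 0.981 for S100a8 and 0.979 for S100a9, followed by Camp (0.957 and 0.969). Both encode granule proteins of maturing neutrophils. Leaving out the 2 arrays farthest from the median changed the r of S100a8 with Ngp to 0.978. These are correlations of gene levels in the same RNA pools, given as a description.

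Neutrophil markers were followed beside them. Of 29 on the array 15 were bright enough to be tested and 10, among them Cxcr2, Mmp8, Cd177 and Trem1, were above the array median on no array. Their summed intensity ranged at 4 h from 5200 to 5710 in progesterone glands and from 5150 to 6516 in oil glands, and at 76 h from 3624 to 4461 in progesterone glands and from 5684 to 7688 in oil glands. At 76 h 4 of the 15 fell (G0s2, Il1r2, Lrg1 and Selplg), which other cells express as well, and the median change was -0.60. Ngp (-1.28, adjusted p = 0.158) and Camp (-1.53, adjusted p = 0.313) were not called by limma at 76 h. The part of neutrophils in the S100a8 and S100a9 values was not tested.

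The 100 bases upstream of these starts are shown because the 2 genes kept the most similar levels of the group (RefSeq, GRCm38.p6, chr3:90668971-90669070 on the plus strand for S100a8 and chr3:90695722-90695821 on the minus strand for S100a9, ATAAA in capitals).
S100a8: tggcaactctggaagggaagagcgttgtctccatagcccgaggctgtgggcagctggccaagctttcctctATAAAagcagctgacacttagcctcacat
S100a9: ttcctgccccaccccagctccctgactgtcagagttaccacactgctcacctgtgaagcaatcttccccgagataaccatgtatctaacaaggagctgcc
ATAAA begins 29 bases before the start of S100a8 and is not in the S100a9 window. The bases directly after the annotated start of S100a9 read tataaata, which holds ATAAA. Its absence from the window thus depends on where the annotated start lies.

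**Figure D3:**
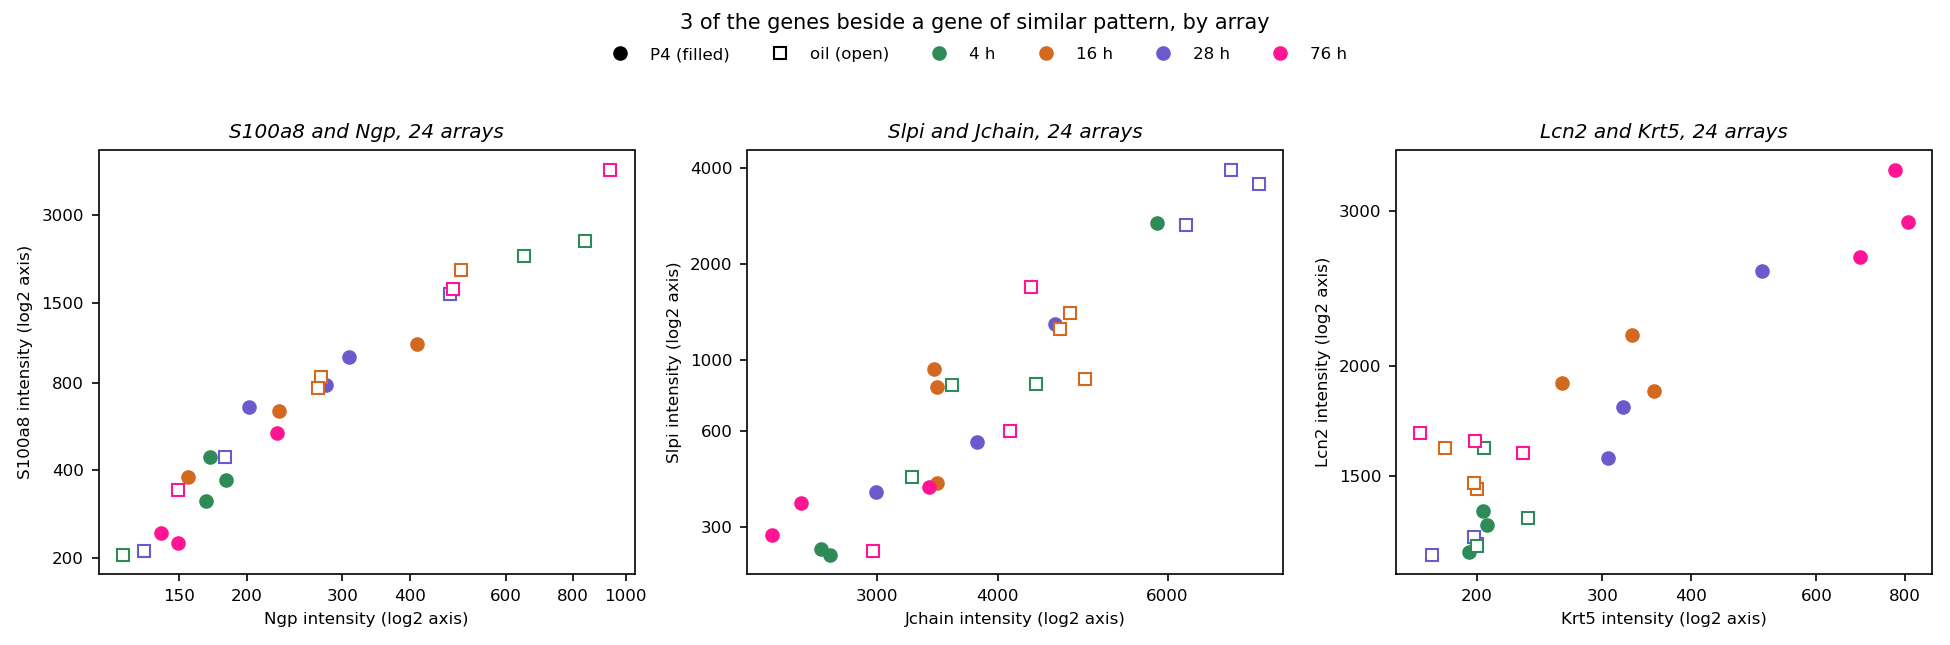
Intensity of S100a8 against Ngp, Slpi against Jchain and Lcn2 against Krt5 on 24 arrays (both axes log2, progesterone filled, oil open, coloured by time). S100a8 and Ngp lie on 1 line, with progesterone and oil arrays mixed in its lower part and only oil arrays at its upper end. Slpi is highest in the 28 h oil arrays and 1 progesterone array of 4 h. Lcn2 rises with Krt5 in progesterone arrays of 16 to 76 h.

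Pigr, at chr1:130826684-130852249, was dim in all groups. Its means lay between 39.7 and 48.7 in progesterone glands and between 33.7 and 46.3 in oil glands. It was above the array median on 0 of 24 arrays with either of its probe sets, and it was left out of the test over all genes. Fitted without the filter on dim genes, its changes were between 0.07 and 0.41 with adjusted p of 0.634 or more in limma. Its ligand partner Jchain, by contrast, was among the bright genes.

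Whether the response differed between times was tested over all 4 times at once. Of the 9 genes 4 were called, Defb1 (adjusted p = 0.000172), Ltf (6.02e-07), Lcn2 (0.00448) and Lbp (0.00146), where 9.98% of all genes were. The 76 h change of Defb1 exceeded that of 4, 16 and 28 h by 3.06, 3.85 and 2.70, each ± 0.54. For Ltf the 76 h change minus those of 4, 16 and 28 h was -1.23, -1.56 and -1.53, each ± 0.15. Of all genes 7.98% differed in this way between 76 and 4 h, 11.1% between 76 and 16 h and 7.59% between 76 and 28 h.

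The other differences between times were fewer. Lcn2 changed by 0.95 ± 0.18 more at 76 h than at 4 h (adjusted p = 0.0013), while its 76 h change minus that of 16 h (0.46, adjusted p = 0.0984) or of 28 h (0.22, adjusted p = 0.538) was not called. Wfdc12 changed by 1.24 ± 0.36 more at 76 h than at 16 h (adjusted p = 0.0259), although its F-test over all times was not called (adjusted p = 0.105). Lbp changed by 1.24 ± 0.25 more at 28 h than at 4 h (adjusted p = 0.0176), a contrast added after the data had been seen, in which 0.438% of genes were called. For Wfdc2, Slpi, S100a8 and S100a9 no test of the response between times was called. The errors of these contrasts were wide for the last 3 genes, from 0.95 to 1.16, and 0.29 for Wfdc2.

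Since oil levels of many genes differed between times, every change was also taken with the 9 oil arrays of the remaining times as controls. By that measure 6.53%, 4.52%, 0.875% and 32.5% of genes were called at 4, 16, 28 and 76 h. The 76 h calls of Defb1 (3.90), Lcn2 (1.10), Wfdc12 (1.74) and Ltf (-1.46) were all made again. So was that of Wfdc12 at 4 h (1.77, adjusted p = 1.92e-05). The controls of 4 and 76 h then include the 28 h oil arrays, the lowest oil group for Wfdc12, at 17.4 on average. Lcn2 at 16 h was called as well (0.48, adjusted p = 0.00998). The 3 genes called at 28 h were not called with these controls: Lcn2 had 0.36 (adjusted p = 0.114), and Wfdc12 and Lbp had the values given with each gene.

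**Figure D4:**
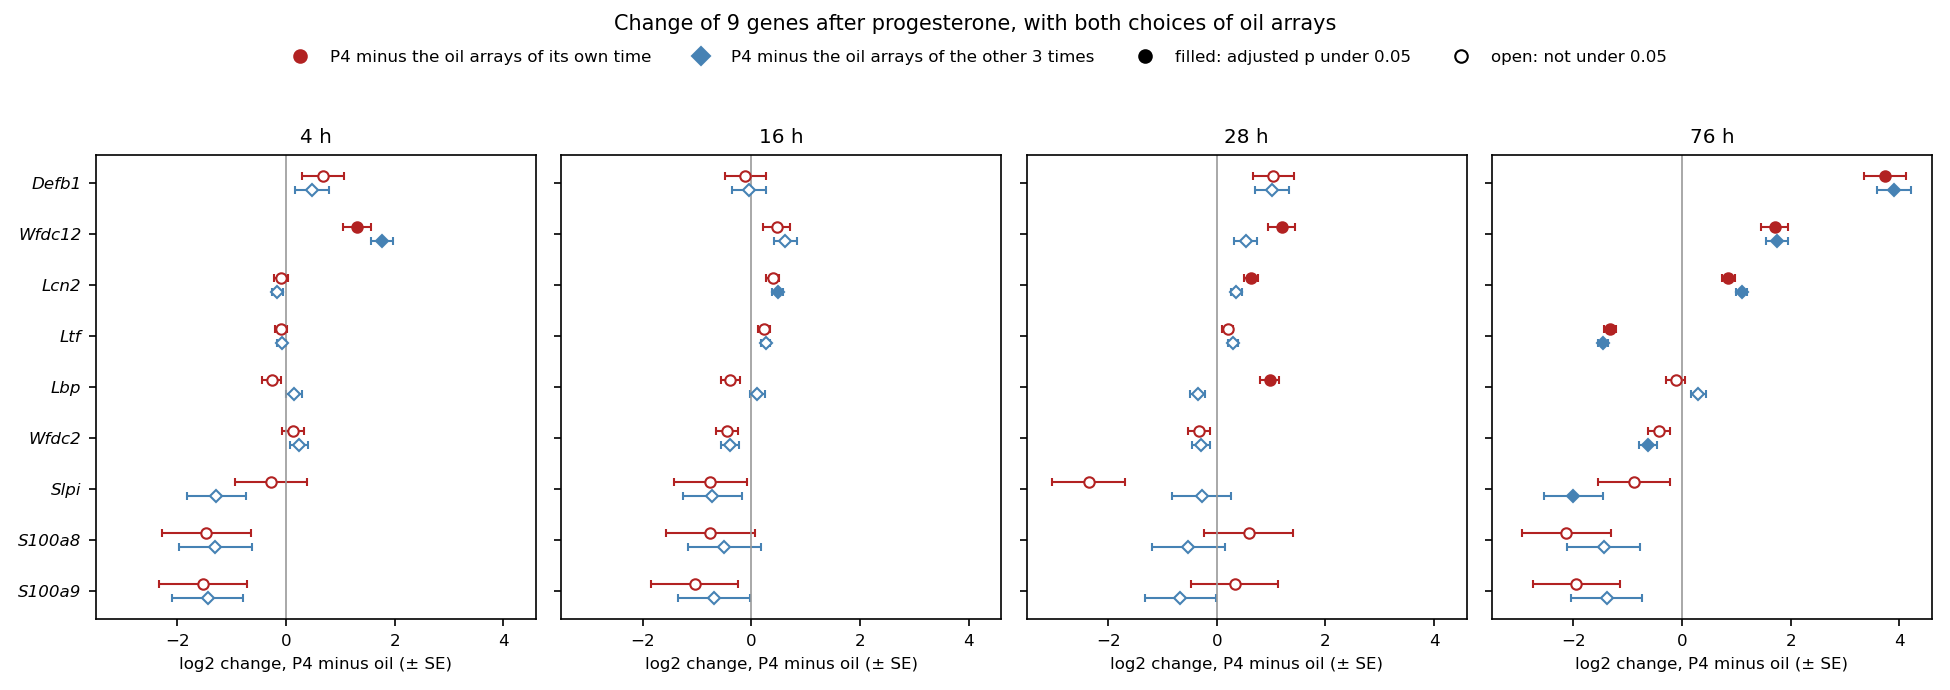
Change of log2 intensity (± SE) of 9 genes at 4 times, progesterone minus the oil arrays of the same time (red circles) or of the other 3 times (blue diamonds), filled where the adjusted p is under 0.05. The 4 genes called at 76 h keep their direction with either set of oil arrays, and Lbp at 28 h lies on opposite sides of 0, at 0.98 and -0.35.

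Groups that did not overlap were common at all times. Of the 9 genes 3 had groups that did not overlap at 4 h, and 3, 4 and 5 at the later times, against 19.0%, 17.1%, 12.0% and 44.7% of all genes in the same order. At 76 h these were Defb1, Lcn2 and Wfdc12 above oil, and Ltf and Wfdc2 below.

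The genes with levels most like those of the called genes differed from gene to gene. Defb1 was closest to Sdc1 (r = 0.938, rho 0.610), an epithelial heparan sulfate proteoglycan, which had 2597 ± 198 at 76 h in progesterone glands and 674 ± 77.3 in oil glands. Lcn2 was closest to the basal keratin Krt5 (r = 0.910, rho 0.710), which had 757 ± 59.5 at 76 h in progesterone glands and 199 ± 32.8 in oil glands. Ltf was closest to Abcd2 (r = 0.864), Tmem182 (0.860) and Gpd1 (0.854), of which Gpd1 supplies fat cells with glycerol phosphate. Within groups these fell to between -0.22 and 0.22, so that the likeness of Ltf lies in the group means. Wfdc12 was closest to Rhou (0.890) and Lbp to Wfdc17 (0.906), all over 24 arrays. Within groups the r of Wfdc12 with Rhou fell to 0.21 and that of Lbp with Wfdc17 to 0.51. That of Lcn2 with Krt5 fell to 0.54 and that of Defb1 with Sdc1 to 0.72.

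Among 21 other secreted antimicrobial genes tested, 4 rose and 4 fell at 76 h, where 17.7% of all genes were called. Their median change was -0.15. The 4 largest called changes were all rises, and not every gene that fell is named. The risers were the mucins Muc15, at 1202 ± 140 in progesterone glands and 140 ± 23.9 in oil glands (3.11 ± 0.24, adjusted p = 3.68e-09), and Muc1, with Wfdc18 and Chil1. Wfdc18, a further member of the whey acidic protein family, had 5169 ± 46.8 in progesterone glands and 1033 ± 161 in oil glands (2.34 ± 0.19, adjusted p = 7.10e-09). Of the 3 other members of that family tested, Wfdc18 rose, Wfdc21 fell (-0.39, adjusted p = 0.0366) and 1 was not called at 76 h.

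Of 10 other S100 genes 2 rose and 1 fell at 76 h, where 17.7% of all genes were called. S100a14, an S100 gene of epithelia, had 103 ± 9.44 in progesterone glands and 14.7 ± 12.7 in oil glands (2.99 ± 0.39, adjusted p = 6.89e-06). S100a6 rose by 0.20 (adjusted p = 0.0286) and S100a1 was at -0.56 (adjusted p = 0.000831).

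Of 28 acute phase genes tested, 7 had an unadjusted p under 0.05 at 4 h in limma, as did 1556 of all 12336 genes. After adjustment 2 of the 28 rose at 4 h, where 0.186% of all genes were called. These were the fibrinogen chain Fgg, at 365 ± 132 in progesterone glands and 76.3 ± 24.8 in oil glands (2.26 ± 0.26, adjusted p = 2.68e-05), and the metallothionein Mt2 (0.94 ± 0.18, adjusted p = 0.0227). At 16 and 28 h limma called 0 of 28. An unadjusted p under 0.05 was found for 4 and 7 of them, and for 2181 and 1534 of all 12336 genes. At 76 h 2 rose and 7 fell, with a median of -0.30, where 17.7% of all genes were called. Mt2 was higher again at 76 h (1.23, adjusted p = 3.35e-05). The protease inhibitor Serpina3n had 1034 ± 289 in progesterone glands and 1656 ± 153 in oil glands (-0.71 ± 0.14, adjusted p = 0.000658).

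Among 23 tested partners and receptors, 4 rose and 1 fell at 76 h, a share near the 17.7% of all genes called at that time. The lipocalin 2 receptor gene Slc22a17 had 330 ± 11.3 in progesterone glands and 236 ± 16.4 in oil glands (0.48 ± 0.10, adjusted p = 0.00133). Cd14, which takes lipopolysaccharide from LBP, was higher by 0.47 (adjusted p = 0.0315) and Tlr2 by 0.58 (adjusted p = 0.0167). Plscr1, a membrane scramblase that binds the Slpi protein, was higher by 1.07 (adjusted p = 3.87e-06). Of the same list only Jchain was called at 28 h, and at 4 and 16 h limma called 0. An unadjusted p under 0.05 was found for 6 and 3 of them, and for 1556 and 2181 of all 12336 genes.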

How the data were processed

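Gland RNA, isolated with Trizol, was biotin-labelled in 1 cycle, per the labels' protocols, and the series used the Affymetrix Mouse Genome 430 2.0 array. The deposited values are linear intensity values, 1 for each of 45101 probe sets on 24 arrays. The software and the normalization behind them were not stated in the labels or headers used here, and no detection calls were used, so that precision is limited by the 3 arrays of a group. Before taking log2, intensities were raised to a floor of 7.38 (10th percentile over all values). The array medians spanned 0.16 on the log2 scale, under a limit of 0.3, and no further normalization was applied. The platform annotation gives 1 symbol to 34945 probe sets, several to 932 and none to 9160. The 64 control probe sets were left out. A gene was read from its brightest single-symbol probe set and tested if that lay above the array median on at least 3 arrays, which left 12336 genes.

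limma 3.58.1 in R 4.3.3 fitted 1 mean per group over 24 arrays (16 residual degrees of freedom, intensity trend), with Benjamini-Hochberg adjustment over all genes at 0.05. Tests are two-sided, intensities carry the SD of 3 arrays and changes the SE of the fit. The fit was tested on simulated data. Genes named are the 10 members, Pgr, up to 4 called members of each list at each time and the 3 most correlated genes of each member. Genes named only as dim markers (Cxcr2, Mmp8, Cd177, Trem1) were picked with their values in view. The members and the lists were chosen with earlier results of these data known. Promoters came from the RefSeq table of GRCm38.p6, which held 8 of the 10 members, and gene positions from the RefSeq gene table of that build. Alternatives changed the normalization, filter, floor, probe set, variance model, array weights, threshold, oil arrays and arrays left out. Same-numbered arrays of progesterone and oil had deviations from group means that correlated between -0.02 and 0.34, so that the numbers were not taken to pair the arrays.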

Additional observations from a re-analysis of the deposited data

Results flagged for a closer look

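Differences in response between times were found for 5 of the genes with limma contrasts, and each is given as a change at the later time minus that at the earlier one (log2). The progesterone effect on Defb1 was larger at 76 h than at 4 h by 3.06, than at 16 h by 3.85 and than at 28 h by 2.70. For Ltf the 76 h effect minus that of 4 h was -1.23, minus that of 16 h -1.56 and minus that of 28 h -1.53. For Lcn2 the effect at 76 h exceeded that at 4 h by 0.95. For Wfdc12 the effect at 76 h exceeded that at 16 h by 1.24. For Lbp the 76 h effect minus that of 28 h was -1.10, and the 28 h effect exceeded that of 4 h by 1.24, with low oil arrays at 28 h in both cases.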

How the results depend on the processing

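In the deposited intensities, 3 arrays per group and dim oil values of Defb1 and Wfdc12 limit the precision of their folds. Of the 10 genes, the 76 h calls of Defb1, Ltf, Lcn2 and Wfdc12 held in all 24 fits that left out 1 array, and Lbp at 28 h did as well. Under the alternatives not named below, the counts of the group's calls stayed within 1.5 times. The causes of the following shifts were not tested. The genes whose oil level differed between times, 2 as reported, were 1 without a filter on dim genes, 1 with probe sets averaged per gene, 1 with robust variance and 1 at an adjusted p under 0.01. The 4 h call of Wfdc12 was lost, leaving 0, with a filter at the 60th percentile, with only the 6 arrays of the time and at an adjusted p under 0.01. Array weights called 4 genes of the group at 16 h and 5 at 28 h, 7 in the test of the response between times and 6 in that of the oil groups, and 2769, 7319, 1627 and 4818 of all genes at 4, 16, 28 and 76 h. With only the 6 arrays of a time, 11, 16, 76 and 3522 of all genes were called at those times, against 23, 38, 313 and 2182. With the oil arrays of the remaining times they were 805, 557, 108 and 4013, and of the group 1 gene was called at 16 h and 0 at 28 h, where Lbp reversed to -0.35. The mean of the probe sets called 17 of all genes at 16 h. At an adjusted p under 0.01, 13, 166 and 1268 of all genes were called at 16, 28 and 76 h, and under 0.10, 105, 67 and 480 at 4, 16 and 28 h. Scaling to the luminal markers lowers the 76 h change of every gene by 1.19, so that Lcn2 comes to -0.34, which says only that its change was smaller than theirs.

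Leaving out 1 array in turn gave between 0 and 1 calls of the group at 4 h, between 2 and 5 at 28 h, and between 1 and 3 genes with differing oil levels. Of all genes, between 12 and 477 were called at 4 h (477 without progesterone replicate 3), between 8 and 1845 at 16 h (1845 without progesterone replicate 1), between 140 and 459 at 28 h and between 1375 and 2382 at 76 h. At 28 h the lowest and highest counts came without progesterone replicates 1 and 2. Of all called genes at 4 h 69.6% were higher, against 81.5% after quantile normalization, and at 16 h 34.2%, against 23.5% after centring arrays on their medians. At 4 h that share was 22% without progesterone replicate 3 of 4 h, 45.7% without oil replicate 3 of 16 h, 48.5% without oil replicate 3 of 28 h, 36.3% with array weights, 33.3% at an adjusted p under 0.10 and 47% with the oil arrays of the other times. At 28 h it was 76.7%, against 41.7% with array weights and 51.9% with the oil arrays of the other times. With the replicate number as a block, 28, 33, 298 and 2132 genes were called at the 4 times, and of the group 1, 0, 4 and 5. Slpi at 28 h then passed (adjusted p = 0.0487), as did S100a8 at 76 h (adjusted p = 0.0413), and no call of the group was lost. The correlation of same-numbered arrays, given with the processing, does not show that the numbers pair them.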
